A study of Rattus norvegicus with 24 samples.

Results

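The comparison described here is that of the high and the low dose of MK-801 in the amygdala of male Wistar rats. MK-801 (dizocilpine) blocks the open channel of the NMDA receptor, a glutamate receptor. Rats received 0.16 mg/kg (high dose) or 0.08 mg/kg (low dose) of MK-801, or saline, by intraperitoneal injection, and brains were removed 40 min later. The array titles put the word Control before saline and before each dose, without saying what it refers to. The study used 9 rats, 3 of them given saline, and their age is 9 weeks in the sample labels but 10 weeks in the design text. The amygdala is represented by the 4 of 24 arrays titled so, 2 for each dose, and each array co-hybridised RNA of treated rats with RNA of saline rats. Treated RNA was labelled with Cy5 on replicate 1, and with Cy3 on replicate 2. For each gene the log2 ratio (treated over saline) of the low-dose array was subtracted from that of the high-dose array within each dye orientation, and both differences were averaged. Errors are the SD of the 2 orientations. Whether the arrays of a dye swap held separate extracts is not stated, so a swap was counted as 1 replicate and the amygdala difference itself carries no p-value.

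The amygdala assigns emotional value to sensory input, and its principal cells and interneurons carry NMDA receptors. Blocking these receptors alters the firing of both, and neurons and vessel cells answer such changes with early response genes, which are transcribed within minutes without new protein synthesis. Among their products are transcription factors such as Fos and Atf3, and feedback regulators such as Dusp1, which switches off MAP kinases. The amygdala borders on the temporal horn of the lateral ventricle, where the choroid plexus secretes cerebrospinal fluid and makes transthyretin, and on the meninges.

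Treated RNA was well above background at 59.8% and 77.2% of spots on the high-dose arrays and at 72% and 66.8% on the low-dose arrays. In the saline channels, 9 of 13 measured amygdala neuron markers were higher in the amygdala than in the mean of the other 5 regions, with Nr2f2 at 2.18 and Cyp26b1 at 1.78 log2 units above it, whereas Prkcd (-0.80) and Foxp2 (-0.85) were lower there. Esr1 was above background on no amygdala array. The list's median difference was 0.43, and 3 members were highest in the amygdala (Cyp26b1, Etv1 and Nr2f2). Other lists were as high: 4 of 4 hippocampal (median 0.72), 7 of 9 cortical and piriform (0.43) and 14 of 14 microglia markers (0.46) were higher there. Striatal markers (1 of 11 higher, median -0.45) and oligodendrocyte markers (0 of 17, median -1.3) were mostly or all lower. Markers of adjoining tissue were high as well: 12 of 12 meningeal markers (median difference 1.56) and 9 of 9 choroid plexus markers (median 1.1) were higher in amygdala saline RNA than in the mean of the other regions. Each region had a slide to itself, so for these levels the slide cannot be told apart from the region. One array stood apart in its ratios. On replicate 1 of the low dose, 52 of the tested genes had a log2 ratio under -0.8, against 3 and 6 on the high-dose arrays and 3 on the other low-dose array. Replicate 1 of the high dose was the dimmest of the 24 arrays by spots well above background (59.8% treated, 56.8% saline). Its saline RNA had a summed blood marker level of 52600, against 89700, 85500 and 90100 on the other amygdala arrays.

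Differences between the doses were few and mostly upward. A gene was tested where treated RNA was well above background on both arrays of at least 1 dose and both orientations had a value, and it was called where the mean difference exceeded 1.5-fold (0.585 on the log2 scale) with 1 sign in both orientations. Of 22395 genes tested, 99 were called (0.442%), 82 higher (0.366%) and 17 lower (0.0759%) at the high dose. A gene symbol was available for 50 of them, 42 higher and 8 lower. Without replicate 1 the count was 81 (62 higher, 19 lower), with 63 genes shared. The share of calls that were higher depended on the scaling: it was 82.8% here, 63.1% with the scanner software's processed signals (293 of 464), 63% in the deposited table and 46% when treated channels were compared without their saline partners (296 of 644). Among genes with saline RNA above background on all 4 arrays, 2.86% passed the same rule between the treated channels alone, 1.46% between the saline channels of the high-dose and low-dose arrays, and 0.5% in the ratios. Just inside the threshold lay Msx1 (0.59) and St6gal2 (0.60), and just outside it Smim22 and Adamts1 (both 0.58).

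**Figure D1:**
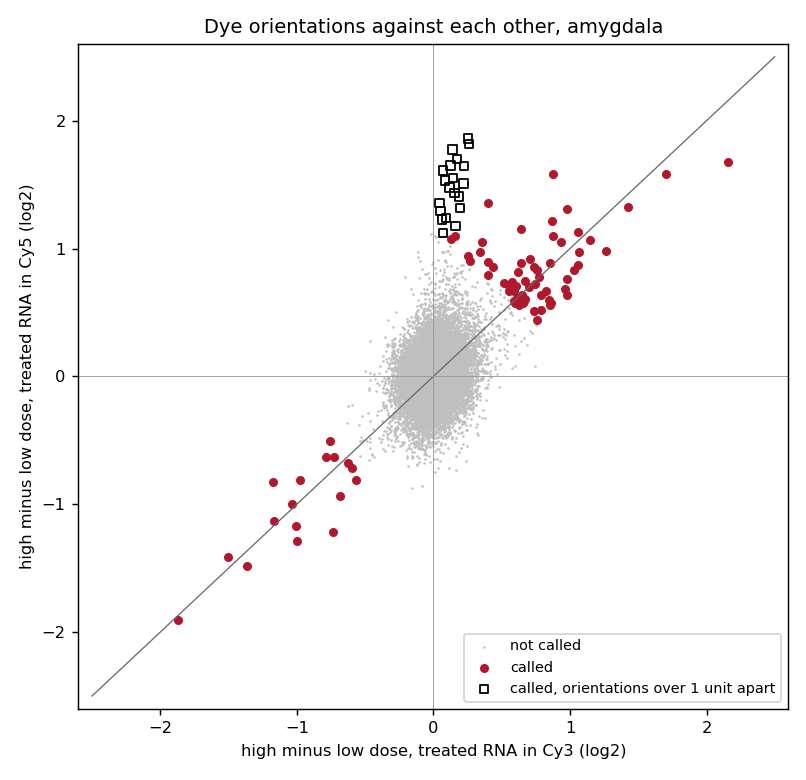
High minus low dose in the amygdala for every gene tested, with treated RNA in Cy5 on the vertical axis and in Cy3 on the horizontal axis (log2). The 99 called genes are in red or outlined in black, and the 20 outlined ones lie far above the line of equality, with orientations more than 1 unit apart.

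The orientations correlated with r = 0.30 across tested genes, which are not independent replicates. Among the called genes, 20 had orientations more than 1 log2 unit apart, every one with the higher difference on replicate 1. Of these, 19 had no gene symbol. Their ratios were low on a single array: the median was -1.09 on replicate 1 of the low dose and 0.09 on replicate 2 of that dose, beside 0.43 and 0.24 at the high dose. Their probes were rich in G and C, with a median of 71.7% GC, against 43.3% for the other called genes and 43.3% for all tested genes. Of 213 tested genes with probes of 65% GC or more, 7.51% were called, all higher, whereas between 0.305% and 0.412% were called in the 4 bins of lower GC. Both properties were noticed after the values were seen, and their part in the calls was not tested.

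Early response genes had higher ratios at the high dose. All gene lists used here were written with earlier results of these data known, so counts of their members describe the data and test nothing. Of 56 tested members of 4 lists (AP-1 factors, zinc finger and nuclear receptor factors, stress-inducible factors, feedback regulators), 8 were called higher (background 0.366%) and 0 lower, and 42 lay above 0 (75%, against 49.8% of all genes). Their median difference was 0.13, against -0.001 over all genes. Both high-dose ratios exceeded both low-dose ratios in 25 of the 56 (11.3% of all genes). The called members were Ccn1, Atf3, Apold1, Fos, Btg2, Dusp1, Klf4 and Ier2, all above saline on both high-dose arrays, and 6 of the 8 were above saline on both low-dose arrays as well.

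The promoters of 3 of these genes hold the cyclic AMP response element, to which the activity-dependent factor CREB binds, and are shown for that reason. The sequences are from RefSeq (GRCr8), 5′ to 3′ on the gene's strand, with the octamer TGACGTCA in capitals.
Btg2, chr13:48087844-48087931, minus strand, element beginning 201 bases before the start: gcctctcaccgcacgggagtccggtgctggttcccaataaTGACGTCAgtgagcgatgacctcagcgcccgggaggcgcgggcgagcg
Dusp1, chr10:17184689-17184776, plus strand, element beginning 124 bases before the start: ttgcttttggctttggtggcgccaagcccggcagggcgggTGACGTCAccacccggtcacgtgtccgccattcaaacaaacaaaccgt
Ier2, chr19:40399267-40399354, plus strand, element beginning 66 bases before the start: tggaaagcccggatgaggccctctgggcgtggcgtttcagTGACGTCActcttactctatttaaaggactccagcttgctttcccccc
The octamer, which reads the same on both strands, was searched in the 250 bases before each start. It was present in 3 of the 7 called early response genes with a promoter in the table (Depp1, in no list, is included there) and in 531 of 33469 promoters (1.59%). A match describes these letters only.

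Ccn1, listed as Cyr61 in the files, encodes a matrix protein secreted by stimulated cells and had the highest difference of all genes tested. Its ratios were 3.24 and 3.81 at the high dose, against 1.56 and 1.65 at the low dose, a difference of 1.91 ± 0.34 (SD of 2 orientations) or 3.77-fold. A second Ccn1 probe gave 1.32. Both doses were thus above saline, and the arrays of the doses did not overlap. The probe maps to chromosome 2, 243811128-243811187, in the rn3 coordinates of the files. What that position is in the gene (exon, intron or UTR) is not stated here for any probe.

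Atf3, a transcription factor induced by cell stress, had ratios of 1.95 and 1.62 at the high dose, against 0.37 and -0.08 at the low dose (difference 1.64 ± 0.08). It was well above saline at the high dose and near saline at the low dose. Fos, the AP-1 factor used as a marker of recent neuronal activity, had 0.72 and 0.84 at the high dose, against -0.50 and -0.03 at the low dose (1.04 ± 0.25). Fos was above saline on both high-dose arrays and under it on both low-dose arrays, narrowly on replicate 2. Without replicate 1, on which its low-dose ratio was -0.50, the difference was 0.87.

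Apold1, which vessel endothelium induces early, had ratios of 2.52 and 2.16 at the high dose, against 1.19 and 0.73 at the low dose (1.38 ± 0.07). Btg2, an antiproliferative regulator, had 1.53 and 1.42 at the high dose, against 0.66 and 0.37 at the low dose (0.96 ± 0.13). Dusp1, the MAP kinase phosphatase, had 1.61 and 1.44 at the high dose, against 0.72 and 0.58 at the low dose (0.87 ± 0.02). In each of these 3 genes the high-dose arrays lay above the low-dose arrays, and the low-dose arrays above saline. Klf4, a zinc finger factor, differed by 0.81 ± 0.24, and Ier2, an early gene of nuclear location, by 0.64, with orientation differences of 0.639 and 0.646. Without the saline channels both went under 1.5-fold, Klf4 to 0.38 and Ier2 to 0.55. Depp1, a target of FOXO factors and a member of no list, had ratios of 1.62 and 1.21 at the high dose, against 0.65 and 0.15 at the low dose (1.02 ± 0.07).

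Members short of the threshold included Klf2 (0.58 ± 0.04), Adamts1 (0.58 ± 0.25), Cebpd (0.52 ± 0.10), Jun (0.42), Sik1 (0.42), Nr4a2 (0.41) and Junb (0.41). Beside the 42 members above 0, others lay below it, among them Sox18 (-0.29 ± 0.09), Jund (-0.24 ± 0.34) and Spry2 (-0.23 ± 0.13). A second Jund probe gave 0.08. Egr1, a zinc finger factor that follows synaptic activity, had ratios of 0.02 and -0.01 at the high dose, against -0.16 and -0.24 at the low dose (0.21 ± 0.04). Its high-dose ratios were at the saline level and its low-dose ratios under it. The whole list of zinc finger and nuclear receptor factors leaned the same way, 11 of 11 tested members being above 0 with a median of 0.15 and 1 called. Of 17 tested activity-regulated synaptic genes 0 were called, near the background of 0.442%, and 10 were above 0 (median 0.026). Arc, which acts at the synapse, differed by 0.20 (orientation differences 0.197 and 0.208), Inhba by 0.24 ± 0.29 and Bdnf by 0.11 ± 0.09.

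**Figure D2:**
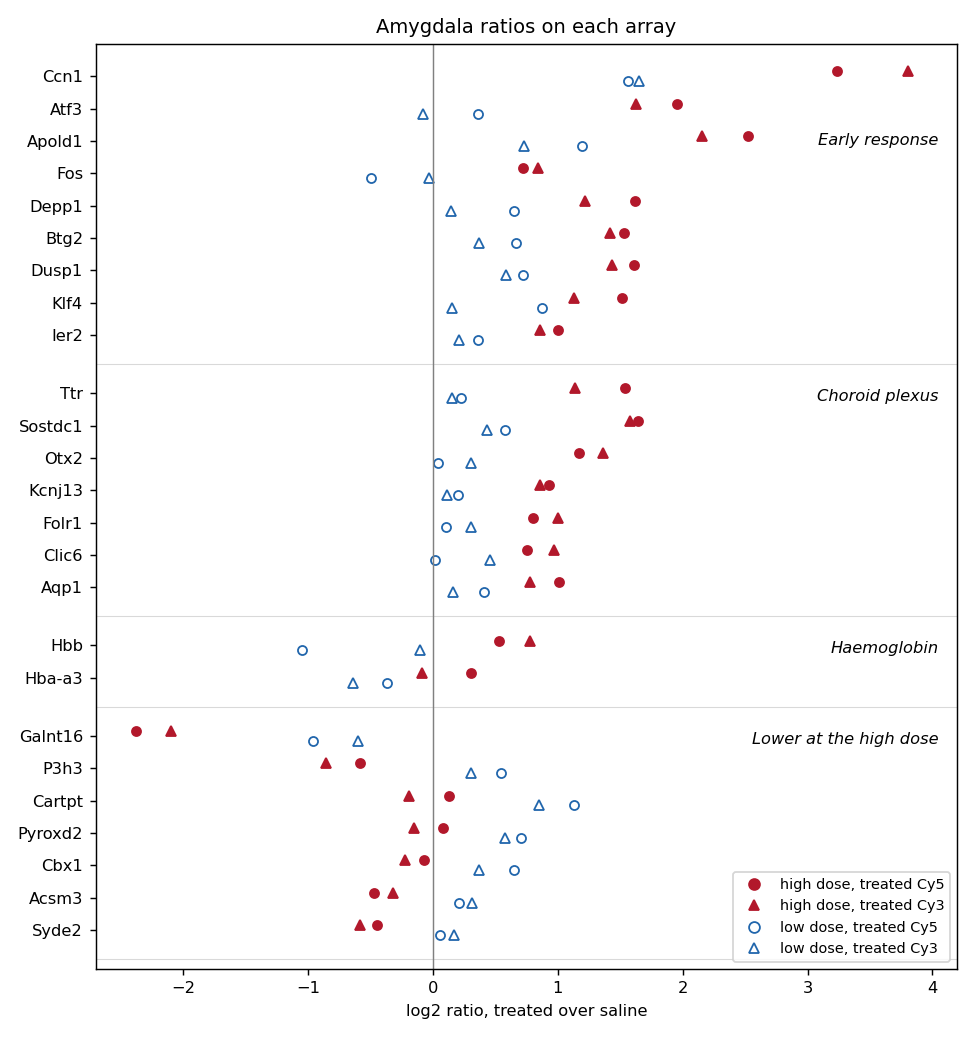
Log2 ratio of treated over saline RNA on each of the 4 amygdala arrays, for called genes in 4 groups. Red symbols are the high-dose arrays and open blue symbols the low-dose arrays, circles with treated RNA in Cy5 and triangles in Cy3. In the first 3 groups both red symbols lie to the right of both blue ones for every gene, and in the last group to the left.

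The same dose difference was tested on arrays of the other regions, which the amygdala values did not use. The study used 9 rats for 6 regions, so regions shared rats, and this is not a replication in other animals. In the cortex, hippocampus, hypothalamus, midbrain and ventral striatum, limma on the 5 regional differences called 285 of 20722 genes (1.38%). Of these, 172 were higher (0.83% of genes tested) and 113 lower (0.545%) at the high dose. These p-values measure the spread between regions, not between rats. Of the 56 early response genes tested in the amygdala, 51 were tested there, and 17 rose and 0 fell. All 8 called in the amygdala were among the 17. With the scanner software's processed signals the differences of Ccn1, Atf3, Fos, Btg2 and Dusp1 over those regions were larger but missed the threshold (limma adjusted p = 0.0714, 0.118, 0.0658, 0.144 and 0.0528), and Ier2 was smaller with median centring and missed it too (0.18, limma adjusted p = 0.941). Ccn1 rose by 0.99 ± 0.11 (SE, limma adjusted p = 0.000399), Atf3 by 1.09 ± 0.18 (limma adjusted p = 0.00825), Apold1 by 0.86 ± 0.09 (limma adjusted p = 0.00031), Dusp1 by 0.43 ± 0.05 (limma adjusted p = 0.000439) and Fos by 0.39 ± 0.05 (limma adjusted p = 0.00229). Of the 276 genes called over those regions and tested in the amygdala, 263 had the same sign in the amygdala mean and 239 in both orientations. Over all genes tested in the amygdala 49.8% lay above 0, and the share of all genes with matching signs was not counted. In the other direction, 64 of the 82 genes called higher in the amygdala were tested over those regions, and 22 of the 64 rose there. Amygdala differences were numerically above the mean of the other regions for each of these 5 genes, by 0.92 for Ccn1, 0.56 for Atf3, 0.52 for Apold1, 0.66 for Fos and 0.45 for Dusp1. None of these gaps passed the test of amygdala against the other regions (limma adjusted p = 0.335, 0.851, 0.62, 0.105 and 0.239).

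Choroid plexus genes formed a second group with higher ratios at the high dose. Their list, too, was written with earlier results of these data known. Of 10 tested members of a list of choroid plexus and ependymal markers, 7 were called higher (background 0.366%) and 0 lower. The other 3 were above 0 as well, namely Foxj1 (0.45 ± 0.14), which drives the formation of motile cilia, Kl (0.44 ± 0.05) and Slc4a5 (0.43 ± 0.21). The list's median difference was 0.66, and all 10 members had both high-dose ratios above both low-dose ratios (11.3% of all genes). At the high dose 10 of 10 stood above saline on both arrays, and at the low dose 8 of 10 did, with median ratios of 0.893 in high-dose and 0.197 in low-dose RNA.

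Ttr, transthyretin, the main secreted protein of the choroid plexus, had ratios of 1.54 and 1.14 at the high dose, against 0.23 and 0.16 at the low dose (1.15 ± 0.23). Sostdc1, a secreted BMP and Wnt antagonist, had 1.65 and 1.58 at the high dose, against 0.58 and 0.43 at the low dose (1.11 ± 0.06). Otx2, a homeobox factor of the choroid plexus epithelium, had 1.17 and 1.36 at the high dose, against 0.04 and 0.31 at the low dose (1.09 ± 0.05), although a second Otx2 probe gave 0.39. In all 3 the doses were well separated, and the low dose was at or a little above saline. The potassium channel Kcnj13 differed by 0.74, the folate receptor Folr1 by 0.70, the chloride channel protein Clic6 by 0.63 and the water channel Aqp1 by 0.61. Clic6 had the widest gap between orientations of these 4 (0.734 and 0.516), and Folr1 went to 0.36 without the saline channels.

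In the other regions the median of this list was nearer to 0 or negative, although Kcnj13 reached 1.17 in the cortex. These regional values were not filtered for brightness in their own region, and the part of dim probes in them was not tested. Over the 10 genes tested in the amygdala, 8 were above 0 in the ventral striatum (list median 0.037), 7 in the midbrain (0.087), 7 in the hippocampus (0.123), 6 in the cortex (0.039) and 0 in the hypothalamus (-0.464). For Ttr the difference was 1.15 in the amygdala, against 0.62 in the midbrain, 0.39 in the cortex, 0.36 in the ventral striatum, -0.43 in the hippocampus and -2.34 in the hypothalamus. The regions therefore scattered widely for Ttr. Only 4 list members were bright enough in every region to be tested for a difference between the amygdala and the others, and 0 of 4 passed: Ttr (1.43 ± 0.78, limma adjusted p = 0.75), Sostdc1 (1.35 ± 0.50, limma adjusted p = 0.531), Folr1 (0.73 ± 0.18, limma adjusted p = 0.208) and Foxj1 (0.47 ± 0.12, limma adjusted p = 0.208).

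The summed normalised level of the 10 genes was 116000 and 126000 intensity units in high-dose RNA and 60100 and 59100 in low-dose RNA. In the saline RNA of the same arrays it was 42000 and 56900 beside the high dose and 50300 and 52300 beside the low dose. High-dose RNA thus stood apart from the other 6 channels. Summed meningeal markers overlapped between the doses (137000 and 198000 in high-dose RNA, 188000 and 179000 in low-dose RNA). In the saline RNA they were 132000 and 194000 beside the high dose and 199000 and 195000 beside the low dose, so treated RNA was above saline on both high-dose arrays and below it on both low-dose arrays. Of 12 meningeal markers 0 were called, near the background of 0.442%, and 10 were above 0 (median 0.094). In bulk tissue more cells of a type and more RNA per cell cannot be told apart, and how much choroid plexus each piece held was not measured.

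**Figure D3:**
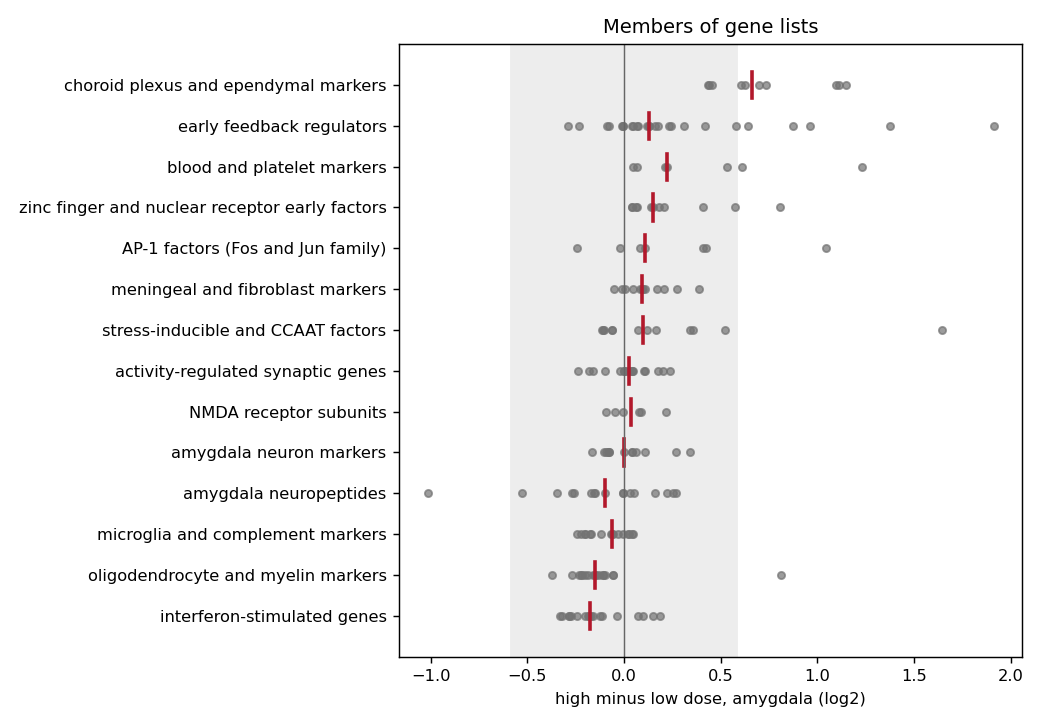
High minus low dose in the amygdala (log2) for the tested members of 14 gene lists. Grey points are genes, red bars list medians, and the shaded band spans the 1.5-fold threshold on both sides of 0. The choroid plexus and ependymal list lies apart from the others with a median of 0.662, while the oligodendrocyte and interferon lists lie under 0.

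Enpp2, autotaxin, which makes lysophosphatidic acid and is abundant in choroid plexus as well as in oligodendrocytes, had ratios of 1.03 and 0.83 at the high dose, against 0.11 and 0.12 at the low dose (0.81 ± 0.15). It sits in the oligodendrocyte list. Of 23 genes with a symbol that were called higher and belong to no list, the next ones were picked after their values were seen. They do not stand for the rest. Kcne2, a potassium channel subunit of the choroid plexus, differed by 0.80 ± 0.08, the keratin Krt18 of simple epithelia by 0.66 ± 0.07, Mfrp by 0.80 ± 0.05 and coagulation factor F5 by 0.71 ± 0.21. Picked in the same way were Haus1 (0.825), Nat8 (0.765), Cln6 (0.715) and Steap1 (0.60). Haus1 and Nat8 also rose over the other regions (0.994, limma adjusted p = 2.44e-07, and 0.257, limma adjusted p = 0.0142). Krt18 (-0.032) and Cln6 (0.022) did not pass there (limma adjusted p = 0.918 and 0.954). Cltrn, collectrin, had 1.36 and 1.54 at the high dose, against 0.38 and 0.28 at the low dose (1.12 ± 0.20).

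Blood markers had higher ratios too. Of 7 tested, 2 were called higher (background 0.366%) and all 7 lay above 0 (median 0.22). Hbb, a beta chain of haemoglobin, had ratios of 0.53 and 0.77 at the high dose, against -1.05 and -0.10 at the low dose (1.23 ± 0.50). It was above saline at the high dose and under it at the low dose, with the lowest value on the array that stood apart. Without replicate 1 its difference was 0.88. Hba-a3, an alpha chain, had 0.30 and -0.09 at the high dose, against -0.37 and -0.64 at the low dose (0.61 ± 0.09), and went to 0.24 without the saline channels. Haemoglobin genes resemble each other, so their probes may share signal. Alas2, which starts haem synthesis in red cell precursors, differed by 0.53 ± 0.05. In the other 5 regions 7 of 7 tested blood markers rose (0.83% of all genes), Hbb by 0.81 ± 0.07 (SE, limma adjusted p = 4.87e-05) and Hba-a3 by 0.78 ± 0.06 (limma adjusted p = 3.05e-05). Residual blood in the tissue was not measured. Among inflammatory genes 1 of 8 tested was called higher (0.366% of all genes), namely the chemokine Ccl2 (0.72 ± 0.20). Treated RNA of Ccl2 was above background on 1 of the 2 high-dose arrays.

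Of the 17 transcripts called lower at the high dose, 16 were also lower over the other 5 regions (0.545% of all genes) and 0 were higher, and the exception was Cartpt. Galnt16, which starts mucin-type O-glycosylation, had the lowest difference of the 8 with a symbol, with ratios of -2.38 and -2.10 at the high dose, against -0.96 and -0.60 at the low dose (-1.46 ± 0.06). It was under saline on all 4 arrays and lowest at the high dose. Over the other regions it fell by 1.28 ± 0.08 (SE, limma adjusted p = 3.65e-06). P3h3, a collagen prolyl hydroxylase, had -0.58 and -0.86 at the high dose, against 0.55 and 0.31 at the low dose (-1.15 ± 0.02). A second P3h3 probe gave -0.12. P3h3 was under saline on both high-dose arrays and above it on both low-dose arrays.

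Smaller negative differences were those of Pyroxd2 (-0.68 ± 0.07), Cbx1 (-0.66 ± 0.09), Acsm3 (-0.65 ± 0.04) and Syde2 (-0.63 ± 0.18). Cbx1 encodes a heterochromatin protein, Acsm3 a mitochondrial acyl-CoA synthetase and Syde2 a GTPase-activating protein. The other Cbx1 probe had the opposite sign (0.22), and the mean over its probes was -0.22. All 4 fell over the other regions (limma adjusted p = 1.89e-05 for Pyroxd2, 4.66e-05 for Cbx1, 0.00137 for Acsm3 and 0.00778 for Syde2). There Acsm3 missed the threshold with processed signals (limma adjusted p = 0.117), and Syde2 missed it without replicate 1 (limma adjusted p = 0.068).

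Cartpt, the precursor of CART peptides, which are made by neurons of the amygdala and hypothalamus and respond to psychostimulants, had ratios of 0.13 and -0.19 at the high dose, against 1.13 and 0.85 at the low dose (-1.02 ± 0.03). It stood at the saline level at the high dose and above it at the low dose. Its promoter carries the same octamer and is printed for comparison with the early response genes.
Cartpt, chr2:32991330-32991417, minus strand, element beginning 142 bases before the start: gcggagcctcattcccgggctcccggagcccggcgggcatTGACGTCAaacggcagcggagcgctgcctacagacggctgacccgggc
By region, Cartpt differed by -0.57 (hippocampus), -0.42 (hypothalamus), -0.39 (cortex), -0.16 (ventral striatum) and 0.16 (midbrain). Their mean did not pass the test (-0.27 ± 0.08, limma adjusted p = 0.195), nor did the gap between amygdala and these regions (-0.74 ± 0.20, limma adjusted p = 0.258). Of 17 tested amygdala neuropeptides Cartpt was the 1 called lower (background 0.0759%), 0 were called higher and 11 were below 0 (median -0.10). Nts, neurotensin, differed by -0.53 ± 0.11 and its other probe by -0.57. Gal, galanin, differed by -0.35 ± 0.03, and Grp, gastrin-releasing peptide, by 0.27 ± 0.01. In the list of hypothalamic neuropeptides and markers 9 of 9 tested members were below 0 (median -0.084), with 0 called (0.442% of all genes). Of 6 thalamic markers 3 were below 0, among them the glutamate transporter Slc17a6 (-0.36 ± 0.10) and calretinin, Calb2 (-0.31 ± 0.03). The part of neighbouring tissue in these values was not tested.

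**Figure D4:**
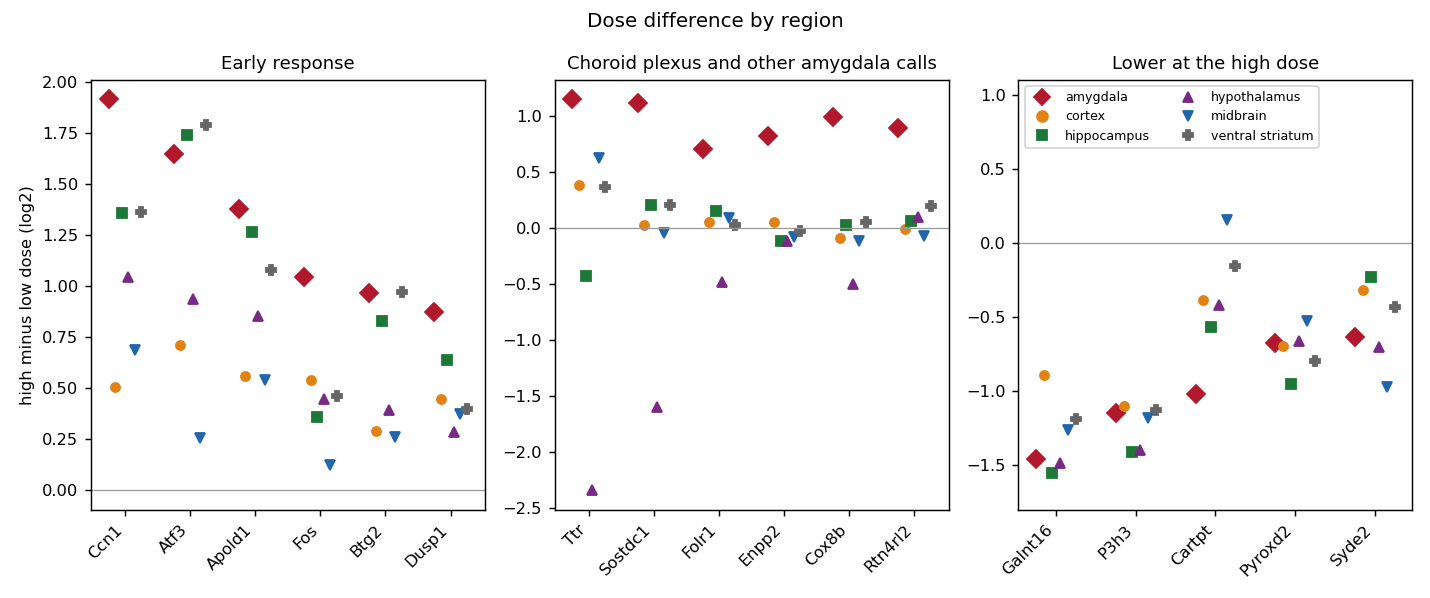
High minus low dose (log2) in each of the 6 regions for named genes, with the amygdala as a red diamond at the left of each gene. Early response genes and Galnt16, P3h3, Pyroxd2 and Syde2 kept 1 sign in all 6 regions, whereas Ttr ranged over both signs, with its lowest value, -2.34, in the hypothalamus.

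Tested against the other 5 regions, the dose difference of the amygdala was larger in 24 of 19787 genes (0.121%) and smaller in 0, against 1472 at an unadjusted p under 0.05 (7.44%, limma, with the lone amygdala value assumed to vary like the other regions). A symbol was available for 6. Enpp2 exceeded the other regions by 0.87 ± 0.09 (SE, limma adjusted p = 0.00633), with 0.81 in the amygdala and differences of 0.05, -0.12, -0.12, -0.08 and -0.03 in the cortex, hippocampus, hypothalamus, midbrain and ventral striatum. Cox8b, a cytochrome oxidase subunit, exceeded them by 1.11 ± 0.16 (limma adjusted p = 0.0281), although its 2 other probes gave 0.05 and 0.08, with treated RNA above background on 3 and 1 of the 4 arrays. Rtn4rl2, a Nogo receptor homologue, exceeded them by 0.83 ± 0.10 (limma adjusted p = 0.0114), Arhgap35 by 0.68 ± 0.10 (limma adjusted p = 0.0257), Klhl42 by 0.63 ± 0.09 (limma adjusted p = 0.0307) and Klf7 by 0.55 ± 0.08 (limma adjusted p = 0.034). In the last 4 the larger difference was on replicate 1: Rtn4rl2 had ratios of 0.41 and 0.26 at the high dose, against -1.24 and 0.14 at the low dose. A second Arhgap35 probe gave 0.02, with treated RNA above background on 1 of 4 arrays.

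In 22 of this set of 24 the low-dose ratio on replicate 1, the array that stood apart, was under -0.4. In 2 of the 24, Enpp2 and Cox8b, the difference on replicate 2 passed 1.5-fold. Leaving out replicate 1 removed the Cy5 arrays of both doses in all 6 regions, so the part of that array alone was not tested. Without replicate 1, 0 genes passed and 540 had an unadjusted p under 0.05, and Enpp2 stood at 0.77 with a limma adjusted p of 0.203. The count was also 0 under median centring, in the deposited table and from the scanner software's processed signals, where Enpp2 exceeded the other regions by 0.93, 0.87 and 0.88 (limma adjusted p = 0.953, 0.113 and 0.123).

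The drug's target is built from NMDA receptor subunits. Of 6 tested subunit genes 0 were called (0.442% of all genes), a count near the background, and 3 lay above 0. Grin1, the obligatory subunit, differed by 0.09 ± 0.01 and its other probe by -0.13, Grin2a by 0.22 ± 0.12, Grin2b by 0.08 ± 0.16, Grin2c by -0.05 ± 0.07, Grin3a by -0.01 ± 0.14 and Grin3b by -0.09 ± 0.20. Treated RNA of Grin2b and Grin3b was above background on 1 of 2 high-dose arrays, and that of Grin3a on 1 of 2 low-dose arrays. Grin2d had a value on 1 of the 4 arrays after outlier spots were left out and was not tested. Also without calls were AMPA and kainate subunits (8 tested, median 0.046), metabotropic glutamate receptors (7, median -0.112), GABA signalling genes (16, median -0.018), monoamine receptors (10, median -0.009), amygdala neuron markers (13, median 0), glucocorticoid-responsive genes (17, median 0.044), clock genes (15, median 0.01) and potassium channel genes (18, median 0.102). The largest of these single values was that of Gria1, an AMPA receptor subunit, with ratios of -0.02 and 0.37 at the high dose, against -0.59 and 0.06 at the low dose (0.44 ± 0.19).

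Some lists leaned to one side with few or no calls. Of 17 tested oligodendrocyte and myelin markers 16 were below 0 (median -0.15, against -0.001 over all genes), led by Mal (-0.37 ± 0.14), a lipid raft protein of myelin. The exception was Enpp2, and a second probe of Opalin gave 0.70 beside -0.27 for the first. Over the other regions 0 of these 17 passed the test (1.38% of all genes). Of 18 tested interferon-stimulated genes 14 were below 0 (median -0.18), with 0 called (0.442% of all genes). Oas1a, an antiviral enzyme, differed by -0.32 ± 0.03, and Irf7, a factor that amplifies the interferon response, by -0.29 ± 0.05. Of 16 of these genes tested over the other regions 6 fell (0.545% of all genes) and 0 rose. There Irf7 fell by 0.42 (limma adjusted p = 4.9e-05) and Oas1a by 0.29 (limma adjusted p = 0.00479). Heat shock genes had 0 of 13 called, near the background of 0.442%. Hspb1, a small heat shock protein, differed by 0.49 ± 0.02 and over the other regions rose by 0.41 (limma adjusted p = 0.000585).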

How the data were processed

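RNA of 6 brain regions was measured on 24 Agilent 2-colour rat arrays, 4 of them of the amygdala. Per the file headers, the deposited scanner files hold spot intensity values made with Agilent Feature Extraction 9.5.3.1 and its log10 ratio of Cy5 over Cy3. The deposited value table matched that log10 ratio on every array once dye-swapped arrays were turned to treated over saline, to within 0.01 for 100% of values. Its amygdala columns had medians between -0.03 and 0, and its direction was settled by this match. Probe positions are in build rn3, per the file headers.

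Mean intensity and median background were corrected by normexp (offset 50) and normalised by loess within each array with limma 3.58.1 in R 4.3.3, giving log2 ratios. The 41012 probes were reduced to 35526 genes or unnamed transcripts, each by its brightest probe, and names came from RefSeq by accession or symbol. The 3 scan days each held 2 regions. The 2 dye orientations of a region were averaged to 1 value, and limma with Benjamini-Hochberg adjustment (threshold 0.05, two-sided) was run over regional differences. Precision is limited by the number of arrays. The labels do not say how many rats an extract held. The limma step was run on simulated data in which the amygdala was given the spread of the other regions, so that assumption was not tested.

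Genes were named by rule: the 14 highest and lowest called genes above background on all 4 arrays, called or leading list members, NMDA receptor subunits, and genes past the test of amygdala against the other regions. The members and gene lists were chosen with earlier results of these data known. Alternatives covered the background offset, scanner processing, normalisation, probe choice, filter, threshold, scan day as a block and each orientation or region left out; removal of a trend on probe GC and a limit on probe GC were added after seeing the data. A gene that the rule names is not reported here.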

Additional observations from a re-analysis of the deposited data

Results flagged for a closer look

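Among 28 named genes with values in all 6 regions, 6 had an amygdala difference far from those of the other regions, and chance flags about 1 in 20 such groups. They were Cox8b (0.99), Rtn4rl2 (0.89), Enpp2 (0.81), Arhgap35 (0.66), Klhl42 (0.60) and Klf7 (0.51). The same 6 genes had a dose difference that differed between the amygdala and the mean of the other 5 regions in the limma test, by 1.11 for Cox8b, 0.83 for Rtn4rl2, 0.87 for Enpp2, 0.68 for Arhgap35, 0.63 for Klhl42 and 0.55 for Klf7. They were named by that test, so the flags are not separate evidence. Without replicate 1 the gaps were 0.94 for Cox8b, 0.13 for Rtn4rl2, 0.77 for Enpp2, 0.39 for Arhgap35, 0.36 for Klhl42 and 0.22 for Klf7.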

How the results depend on the processing

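The 99 amygdala calls became 464 with processed signals, 451 in the deposited table, 644 with treated channels alone, 19 at 2-fold and 54 where each orientation had to pass 1.5-fold. Leaving out an orientation gave 81 to 306. The 24 genes that set the amygdala apart became 4 with an offset of 16, 0 with median centring, 0 with processed signals, 0 in the deposited values, 15 without the filter on dim probes and 2 with probes of under 60% GC. It was 21, all among the 24, with a trend on probe GC removed, and both GC settings were chosen after seeing the data. Leaving out an orientation gave 0 to 81, and leaving out a region 14 to 21. The 285 genes called over the other 5 regions became 149 with processed signals, 51 with median centring and 148 in the deposited table. Leaving out an orientation gave 123 to 170, and leaving out a region 172 to 275. The causes were not tested. Under a block for scan day the counts were 24 and 285. The 34 named genes examined kept their sign under the 10 settings run on each. The amygdala difference went under 1.5-fold with treated channels alone for Folr1 (0.36), Hba-a3 (0.24), Ier2 (0.55), Klf4 (0.38) and Pyroxd2 (-0.48), over the mean of probes for Arhgap35 (0.34), Cbx1 (-0.22), Cox8b (0.37) and Klhl42 (0.48), and without 1 orientation for Arhgap35, Ccl2, Clic6, Hba-a3, Klhl42, Rtn4rl2 and Syde2. No paired analysis was possible because the replicate numbers mark only the dye orientation, which the difference already pairs.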
